A study of Homo sapiens with 6 samples.

Results

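LTR elements with reads in the AT/RT cell line CHLA 05 and in no other library of the series were examined. Members were chosen by their read-out in the LTR files, as elements with a TPM multiplied by length of 10000 or more in CHLA 05 and a TPM of 0 in the other 5 libraries. In CHLA 05 this minimum corresponded to 10 reads. The rule gave 218 members among 720177 annotated LTR elements, and among 9632 elements that passed the minimum in CHLA 05 (2.26%). The level in CHLA 05 and the absence of reads elsewhere were therefore fixed by the choice, and are given as a description. The study sequenced total RNA from 4 established human lines of atypical teratoid rhabdoid tumor (AT/RT). Beside CHLA 05, the lines were CHLA 02, CHLA 04 and CHLA 06. AT/RT is an embryonal brain cancer defined by loss of SMARCB1, a subunit of the SWI/SNF chromatin remodeling complex. All 4 lines were grown untreated in DMEM:F12 with EGF, basic FGF and B-27. A single library represented CHLA 05, as it did CHLA 02, whereas the lines CHLA 04 and CHLA 06 were each sequenced as 2 technical replicates. Each line was thus 1 biological sample, no control line without SMARCB1 loss was included, and no test between lines could be made.

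Long terminal repeats (LTRs) are the regulatory ends of endogenous retroviruses, and carry a promoter and a polyadenylation signal. Most copies have lost the viral genes and lie as solitary LTRs in introns and between genes, where they may be transcribed from their own promoter or as a passenger of a longer transcript. HERV-H, with its LTR7 family, is known for transcription in pluripotent cells, and LTR7Y is a young LTR subgroup linked to the early embryo. MaLR elements (THE1, MST and MLT1) are older, non-autonomous relatives that make up much of the LTR sequence in human introns.

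Depth on LTR elements was 355302 to 511408 reads per library, with 413966 in CHLA 05, and 10265899 to 20520229 reads per library fell on transcripts. SMARCB1 transcripts were present at 13.5 to 26.2 TPM in all 6 libraries. In CHLA 05 the neural progenitor markers SOX2 and NES were at 4.03 and 27.6 TPM, PAX6 and MSI1 at 36.9 and 236 TPM, and FABP7 and VIM at 1400 and 8430 TPM. The fibroblast marker COL1A1 was at 11.5 TPM in CHLA 05, 387 TPM in CHLA 02, 0.679 to 2.76 TPM in CHLA 04 and 459 to 600 TPM in CHLA 06. DCN, the other fibroblast marker, was at 0 TPM in CHLA 05, 20.1 TPM in CHLA 02, 0.281 to 1.71 TPM in CHLA 04 and 30.2 to 42.9 TPM in CHLA 06. The endothelial markers PECAM1 and CDH5 were below 0.1 TPM in each library. The CHLA 02 library stood apart. It had reads on 99.3% to 99.6% of the elements that passed the minimum in each CHLA 04 and CHLA 06 library, compared with 93.1% of those of CHLA 05. Over 11859 genes that reached 10 TPM in any line, CHLA 02 was fitted on TPM by 0.299 times CHLA 04 plus 0.627 times CHLA 06 plus 0.00534 times CHLA 05. Fitted and observed values gave r = 0.969 on the log scale of TPM plus 1, across genes, which are not independent. The other 3 lines gave r of 0.784 to 0.845 in the same fit. The reason for this was not tested.

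The number of elements restricted to a library depended on CHLA 02. Under the same rule, with libraries of the same line left out of the comparison, CHLA 02 held 0 restricted elements, the CHLA 04 libraries 12 and 6, and the CHLA 06 libraries 30 and 21. With CHLA 02 left out, CHLA 05 held 253, the CHLA 04 libraries 529 and 456, and the CHLA 06 libraries 1024 and 1068. CHLA 05 thus went from the highest to the lowest of these libraries, but they were not held to equal terms. In the first comparison CHLA 05 had to be at 0 in 5 libraries, and each CHLA 04 or CHLA 06 library in 4. A single read was worth 899 to 1335 in TPM multiplied by length, with 1099 in CHLA 05. Of the elements restricted to CHLA 04 or CHLA 06 with CHLA 02 left out, 99.2% to 100% had a read in the technical replicate of the same line. CHLA 05 had no technical replicate in which its members could be looked for again.

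**Figure D1:**
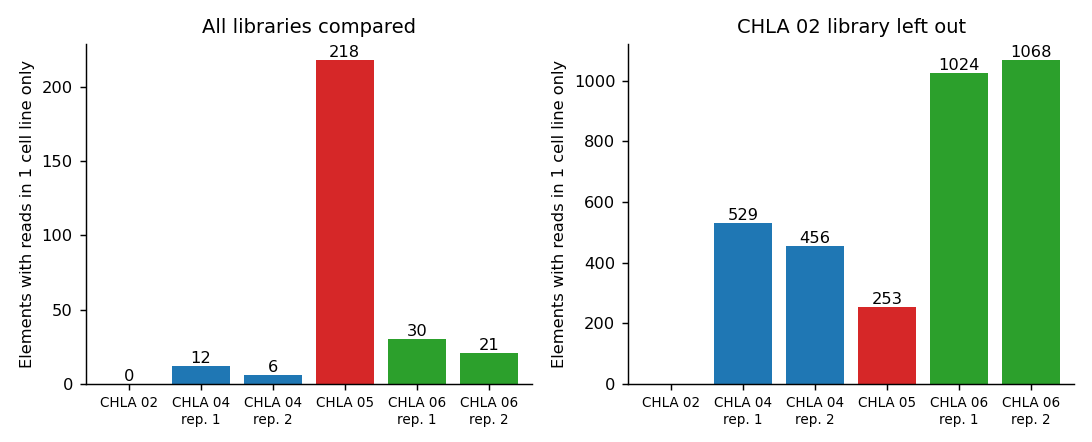
Number of LTR elements that passed the minimum in a library and had 0 reads in every library of the other cell lines, with all libraries compared (left) and with the CHLA 02 library left out (right, where CHLA 02 has no bar). CHLA 05 holds 218 and 253 elements, and the CHLA 06 libraries go from 30 and 21 to 1024 and 1068.

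The 218 members held 8640 reads, 2.09% of the LTR reads of CHLA 05. Most were weak. The median was 15 reads, 100 members had 10 to 14 reads, 76 had 20 or more, 19 had 50 or more and 5 had 100 or more. The other 5 libraries together held 2262241 LTR reads, so that a count of 0 allows up to 0.133 reads per 100000 for an element (3 reads over the group, counting error only). Members with 10 reads stood at 2.42 per 100000 in CHLA 05, 18.2-fold above that limit. The limit holds for the 5 libraries pooled, and a count of 0 in a single library allows a higher level. The count in CHLA 05 has a counting error of its own, so that the fold is not a lower bound. At the threshold were MER39 on chromosome 4, MSTB on chromosome 13 and the LTR7Y of chromosome 10, with 10 reads each. Just below it were HERVH-int on chromosome 4, MSTA-int on chromosome 21 and LTR8 on chromosome X, with 9 reads each and 0 elsewhere. In all, 26 members had 10 reads, and 42 elements with 9 reads fell short.

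Reads of one other library alone kept further elements out. CHLA 04 replicate 2 had reads on 91 elements that the rule would otherwise have taken, with 208 reads in it against 1768 in CHLA 05, while its technical replicate did so for 39 elements. The corresponding numbers were 35 for CHLA 02, 13 for CHLA 06 replicate 1 and 21 for CHLA 06 replicate 2. Repeated sequence was not a general feature of the members. In 184 of the 218, each 125-base window, the length of a read, occurred once in hg38, and 199 had at least 90% such windows. The exceptions included several HERV-H elements, LTR5_Hs on chromosome 22 with 35.7%, and an MLT1I copy on chromosome 1 with no unique window. Reads of these elements could have been placed at one of their copies.

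By family, HERV-H and LTR7 gave 23 members with 4420 reads, 51.2% of the reads of all members. Of these reads, 3917 came from a single unit on chromosome 13, and without that unit the family held 503 of 4723 reads (10.7%). Of the 135 HERV-H and LTR7 elements that passed the minimum in CHLA 05, 17.0% were restricted to it (95% Wilson interval 11.6% to 24.3%, counting error only). Without the chromosome 13 unit the share was 13.2% (17 of 129). The share over all families was 2.26%. Members of one unit are neighbours at one locus and are not independent, so that these 23 stand for 8 loci. Whether they share a transcript was not tested. HERVH-int gave 16 members of 89 elements, and LTR7Y 5 members of 7. With CHLA 02 left out, 24 HERV-H and LTR7 elements were restricted, 17.8% of the same 135.

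MaLR elements were the most numerous, with 111 members (50.9%), close to their 47.2% of all elements that passed the minimum. MLT1 gave 61 members, THE1 25 and MST 25, the last with 10 members named MSTA. The restricted share was 2.34% for MLT1, 2.52% for THE1 and 2.65% for MST, all with intervals that include 2.26%. The intervals cover counting error only, and members at one locus or in one gene are not independent. The overall 2.26% includes these families, so that this is a description and not a test. HERV-K internal sequences and LTR5 gave 3 members of 215 elements (1.40%, interval 0.476% to 4.02%). The strongest of these was LTR5_Hs on chromosome 22 (chr22:18946885-18947848, 81 reads), the element with few unique windows noted above. It overlaps the gene AC007326.1, whose other LTR elements had 1092 reads in CHLA 05. These other elements had 16 reads in CHLA 02, 7 and 7 in CHLA 04, and 6 and 8 in CHLA 06, so that the locus as a whole was not restricted to CHLA 05.

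**Figure D2:**
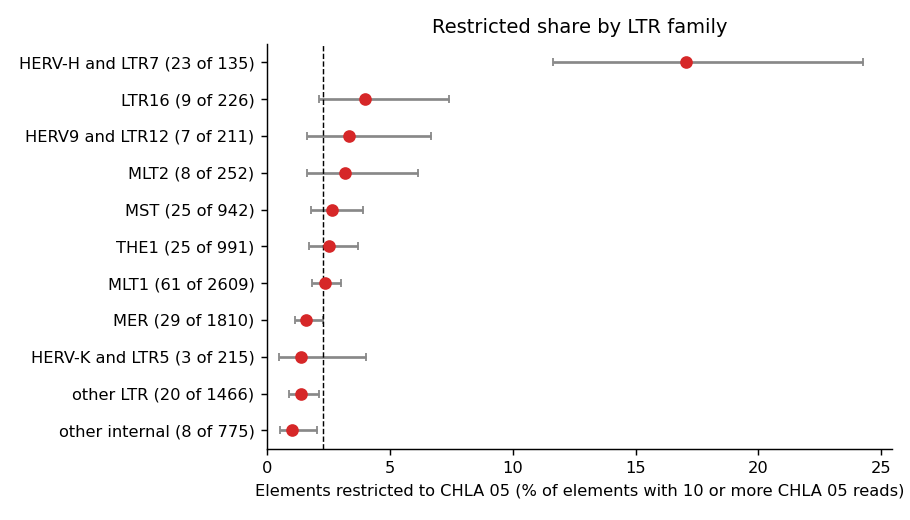
Percent of the elements with 10 or more CHLA 05 reads that had 0 reads in the other 5 libraries, by LTR family, with 95% Wilson intervals of counting error and the numbers of elements in brackets. The dashed line is the share over all families (2.26%), and HERV-H and LTR7 lie at 17.0%.

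An HERV-H unit is a provirus in which 2 LTRs flank an internal sequence (HERVH-int). The HERV-H members came from 6 such units with both LTRs, a unit with only its 3′ LTR annotated and a solitary LTR7. The chromosome 13 unit (chr13:109265090-109271116, plus strand of GRCh38, the build of all positions given) held 3917 reads in CHLA 05 and 0 in the other 5 libraries. Its longest HERVH-int element (chr13:109265522-109269052) alone had 3044 reads, at 948 TPM. This is 735 reads per 100000 in CHLA 05, 5545-fold above the pooled limit for the other 5 libraries. This single element carried 35.2% of the reads of all members. The next elements of the unit had 455, 200, 131, 66 and 21 reads. The unit lies between genes in the annotation of the files, and its 3′ part overlaps an exon of the long non-coding RNA LINC03061 in GENCODE.

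In this unit the 5′ LTR had 0 reads, the internal sequence 3786 reads (72.7 per 100 bp) and the 3′ LTR 131 reads (30.3 per 100 bp). The chromosome 19 unit (chr19:5548576-5553212) had 0, 749 and 53 reads in the same order, or 0, 19.7 and 12.0 per 100 bp. One read on its longest internal element in a CHLA 06 library kept 659 of these reads out of the members. The units on chromosomes 10 and 1 also had 0 reads in the 5′ LTR, with 130 and 59 in the internal sequence and 10 and 15 in the 3′ LTR. The chromosome 8 unit had 2, 125 and 6 reads, and the chromosome 17 unit had 6, 51 and 18.

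The 3′ LTR thus had more reads than the 5′ LTR in all 6 units. The choice of units bears on this count, because units were taken in through their members. The chromosome 17 unit was taken in through its 3′ LTR alone, and no 5′ LTR was a member. Reads that fit more than 1 copy could have been placed in either LTR. In the chromosome 13 unit, 46.9% of the windows of the 3′ LTR were unique. Reads in the other libraries were 0 for the units of chromosomes 8, 10 and 13 and for the unit at chr1:183613210-183619373, 1 for chromosome 19 and 9 for chromosome 17. The chromosome 8 unit lies inside CALB1, a calcium-binding protein gene, and its longest internal element overlaps an exon of that gene. The solitary LTR7 on chromosome 14 (chr14:41599669-41600169, 11 reads) lies 7401 bp before the start of LRFN5 on the opposite strand. It lies in an intron of CTD-2298J14.2, on the strand of that gene, which was at 3.18 TPM in CHLA 05 and at 0 in the other libraries.

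**Figure D3:**
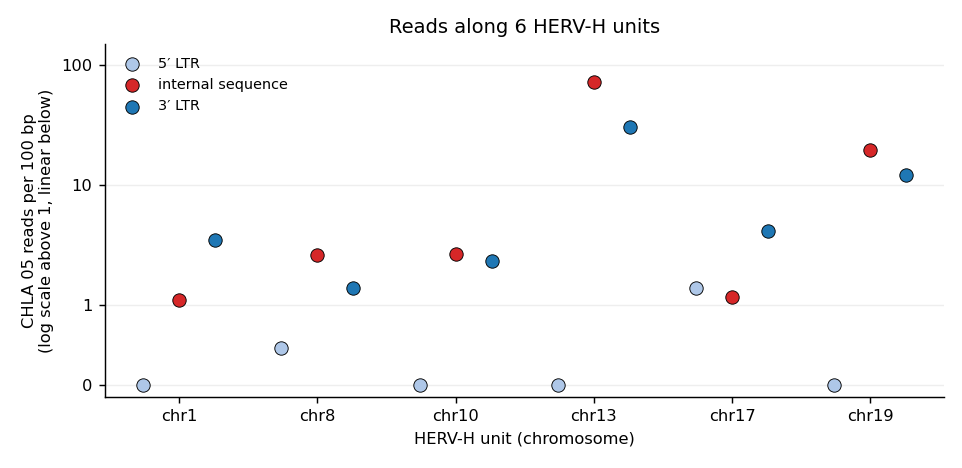
CHLA 05 reads per 100 bp in the 5′ LTR, the internal sequence and the 3′ LTR of the 6 HERV-H units with both LTRs, on an axis that is logarithmic above 1 and linear below. The 3′ LTR lies above the 5′ LTR in each unit, and the chromosome 13 unit reaches 72.7 in its internal sequence.

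With neighbouring members joined at a gap of at most 50 kb, the members formed 106 intervals, of which 68 held a single member. The other 38 held 150 members (68.8%). The same joining put 76.6% of the 9632 elements with the minimum in clusters of 2 or more, but these lie more densely, so that the shares are not comparable. In all, 14 clusters with 4 or more members held 96 members and 6456 reads, 74.7% of the total. Chromosomes 4, 13 and 21 held 74 members (33.9%), compared with 13.6% of the elements with the minimum. They are the chromosomes with the most members and were picked after the counts were seen, so that an excess was built in. On chromosome 13, 18 of 20 members lay in 1 cluster, and on chromosome 21 clusters of 13 and 7 held most of the 22. Within the 14 clusters, the LTR elements that were not members had 1251 reads in CHLA 05. These elements had 17 reads in CHLA 02, 6 and 15 in CHLA 04, and 7 and 22 in CHLA 06. The chromosome 13 cluster accounted for 795 of the 1251 reads. The clusters differed in this. In the ADAMTS19 cluster (chr5:129601503-129672343) such elements had 26 reads in CHLA 05 and 7 and 19 in CHLA 06, and in a chromosome 14 cluster (chr14:43026198-43074968) they had none. In the ADAMTS19 cluster the plus strand, opposite to the members, had 1 read in CHLA 05 and 26 in the other 5 libraries together. On the strand of its members these 5 libraries had 3 reads.

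The cluster on chromosome 13 (chr13:109188514-109277198, 88.7 kb) was the largest, with 18 members and 4403 reads, 51.0% of the reads of all members. It begins in the last part of MYO16, a gene for an unconventional myosin, and extends past the HERV-H unit described above. The first member, MLT2A2, is not on the strand of MYO16. It also overlaps MYO16-AS1, a gene on its own strand that was at 0 TPM in all 6 libraries. Before the unit, all 9 members were on the minus strand. They included THE1B with 77 reads, MER57B2 with 54, MLT2F with 47 and a pair of MSTA copies with 45 and 36. From the unit on, all 9 members were on the plus strand, among them LTR9 with 88 reads and MER39 with 44.

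Counts over all LTR elements of the cluster, members included, showed the same strands. Before the unit, 17 of 20 minus-strand elements had reads in CHLA 05, 1128 in all, against 2 of 12 plus-strand elements with 3 reads. From the unit on, 9 of 10 plus-strand elements had reads, 4067 in all, and these 9 were the members. No minus-strand element was annotated in the rest of the cluster. The elements that were not members had 795 reads in CHLA 05, 3 of them on the plus strand before the unit. Among the minus-strand members, the reads per 100 bp were 21.6 in the THE1B element nearest to the unit, at a distance of 3.19 kb. They were 13.8 in MLT2F at 14.9 kb, 14.0 in MER57B2 at 16.6 kb, 11.6 in MSTA at 37.0 kb, 6.42 in MLT1A0 at 55.8 kb, and 4.36 in MLT2A2 at 76.4 kb. The largest non-member was an HERVL-int copy of 5641 bp with 438 reads in CHLA 05, 6 in CHLA 02, 1 and 6 in CHLA 04 and 0 in both CHLA 06 libraries. MYO16 itself was at 2.31 TPM in CHLA 05 and at most 0.940 TPM in the other libraries.

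**Figure D4:**
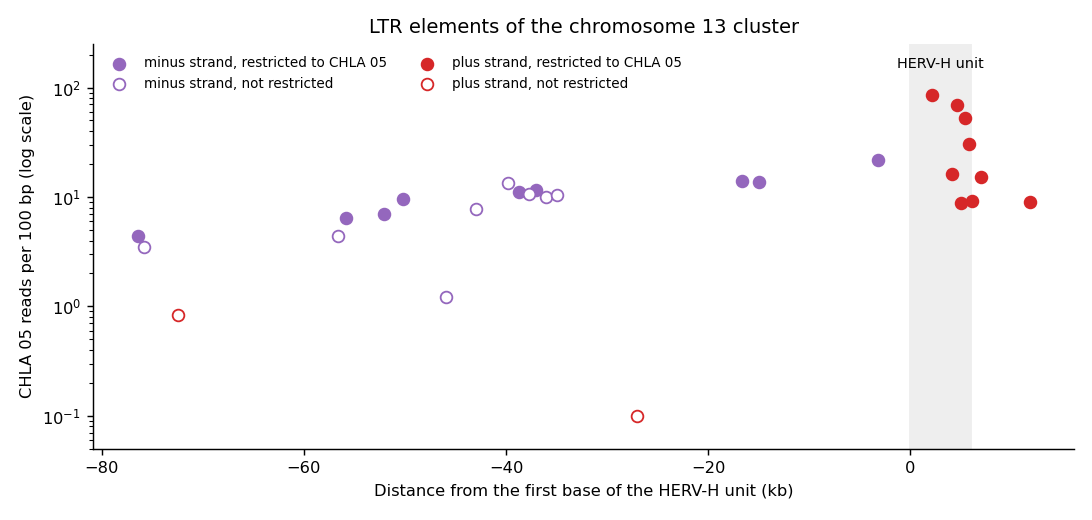
CHLA 05 reads per 100 bp (log scale) of the LTR elements with reads in the chromosome 13 cluster, by distance from the first base of the HERV-H unit (grey) to the middle of the element. Filled points are members and open points other elements. Minus-strand elements lie before the unit, with 21.6 at 3.19 kb and 4.36 at 76.4 kb, and plus-strand elements with high values lie from the unit on.

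On chromosome 14 (chr14:43026198-43074968) 6 members held 505 reads. A THE1B-int element there had 321 reads (225 TPM), its flanking THE1B copy 71 and an MLT2A1 copy 50. The nearest annotated gene lay 322543 to 371123 bp away, and no other LTR element of the interval had a read in any library. On chromosome 21, 13 members with 202 reads covered 174 kb (chr21:24318897-24492888), and 6 of them lay in the non-coding gene AP000476.1, which was at 5.81 TPM in CHLA 05 and at most 0.109 TPM elsewhere. A second cluster of that chromosome (chr21:13875255-13903455) held 7 members, 6 of them MSTA-int, with 107 reads. Of its members, 6 lay 6119 to 26192 bp downstream of ANKRD20A11P, a pseudogene at 3.08 TPM in CHLA 05 and at most 0.0390 TPM elsewhere. Its windows were less often unique than those of most clusters, with a median of 93.3%, and other elements of the interval had 125 reads in CHLA 05 against 0 to 3 in the others.

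In 12 of the 14 clusters all members were on 1 strand, 72 members in all. On that strand the LTR elements of these 12 intervals, members included, had 2362 reads in CHLA 05. On the other strand, 4 of 129 elements had any read, with 5 reads in total, so that 99.8% of the reads were on the strand of the members. The reads of the members are on that strand by the choice of these clusters, so that the share was largely set in advance. Outside the chromosome 13 cluster, elements of clusters of 4 or more that were not members had 456 reads in CHLA 05. The exceptions were the chromosome 13 cluster and the one at LRFN5, where the LTR7 mentioned above was the single member on the minus strand. Libraries were prepared with a stranded kit, and whether the counting used strand is not given in the sources used here.

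Inside the genes annotated in the files lay 127 members (58.3%), compared with 78.9% of all elements that passed the minimum in CHLA 05. Introns held 118 of them, and 9 overlapped an exon (4.13%, compared with 11.9%). Of 115 members with genes on one strand only, 102 (88.7%) were on the strand of the gene, compared with 94.4%. With the newer GENCODE annotation, 146 members lay inside a gene, 19 of them in genes found only there. Of the 91 members outside, 44 lay within 50 kb downstream of the nearest gene, 25 within 50 kb upstream and 22 farther away.

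Host genes were looked up in the transcript files, a separate mapping of the same libraries. Because the libraries are those the rule used, the levels are a description. Of 64 host genes, 56 were above 0 TPM in a library, and 33 (51.6%) were at least 4 times higher in CHLA 05 than in every other line, on TPM plus 1 with technical replicates averaged. Over all 22532 genes above 0 TPM in a library, 362 (1.61%) were, and of the 3698 genes that held only other elements with the minimum, 99 (2.68%) were. The 33 genes held 80 of the 127 members, with folds of 4.18 to 69.2 and a median of 18.4. The median fold was 4.26 over all 64 host genes and 0.861 over all genes above 0 TPM.

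The 33 genes were put in order by hand after their values were seen, and no group of them was tested. FSTL5, which encodes a secreted follistatin-like protein and held 8 members with 129 reads, was at 127 TPM in CHLA 05. It was at 0.299 TPM in CHLA 02, 0.719 and 0.978 TPM in CHLA 04, and 0.0272 and 0.0488 TPM in CHLA 06. Its 8 members, 11 to 25 reads each, were all intronic and on the strand of the gene. LRFN5, a synaptic adhesion gene with 7 members and 143 reads, was at 33.8 TPM in CHLA 05 and at most 0.181 TPM in the others. PCDH10, a protocadherin gene with 1 exonic member (MLT1F2, 36 reads), was at 251 TPM against at most 4.11. That CHLA 05 lay above the other lines was fixed by the choice of these genes.

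SDK2, a sidekick adhesion gene, was at 190 TPM in CHLA 05 and at 0.255 to 4.64 TPM in the other 5 libraries. NLGN4X, a neuroligin gene, stood at 161 TPM and at 0.0199 to 9.54 TPM. CDH10, a cadherin gene, was at 62.5 TPM compared with at most 0.788. Lower levels with the same order were seen for the ephrin receptor gene EPHA5 (49.3 TPM, at most 0.734), the netrin receptor gene UNC5C (28.9 TPM, at most 0.293) and the limbic adhesion gene LSAMP (30.9 TPM, at most 1.27). Folds nearer to the limit of 4 were those of the glypican gene GPC6 (4.76-fold), the adhesion gene NCAM2 (4.34-fold) and CTD-2298J14.2 (4.18-fold, the lowest of the 33).

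COBL, an actin nucleator gene with 4 intronic members (20, 32, 45 and 21 reads), was at 141 TPM in CHLA 05, 0.353 in CHLA 02, 0.513 and 1.68 in CHLA 04, and 0.0950 and 0.210 in CHLA 06. ATP2B2, a plasma membrane calcium pump gene, was at 111 TPM compared with at most 1.02, and GABBR2, a GABA-B receptor gene, at 72.0 TPM compared with at most 1.84. NETO1, an auxiliary subunit gene of glutamate receptors with 7 members and 109 reads, was at 29.5 TPM and at most 0.303. ERBB4, a neuregulin receptor gene with 3 members, was at 76.9 TPM and at most 5.28 TPM in the others. BMPR1B, a bone morphogenetic protein receptor gene, was at 64.1 TPM, with 2.67 and 1.27 in CHLA 04.

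Several of these host genes had LTR elements with reads in other libraries. In ERBB4, the elements that were not members had 704 reads in CHLA 05, 17 in CHLA 02, 31 and 32 in CHLA 04 and 0 and 2 in CHLA 06. In FSTL5 the same sum was 174 in CHLA 05, 3 in CHLA 04 replicate 2 and 0 in the other 4. LSAMP went the other way, with 161 reads in CHLA 05. The same sum was 863 for CHLA 02 and 2703 and 2323 for the CHLA 06 libraries, although the gene itself was at most 0.498 TPM in those 3. CALB1 (53.2 TPM, with 2.35 and 3.10 in CHLA 04) and the microRNA host gene MIR181A1HG (51.6 TPM, with 2.05 and 2.48) were also among the 33.

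**Figure D5:**
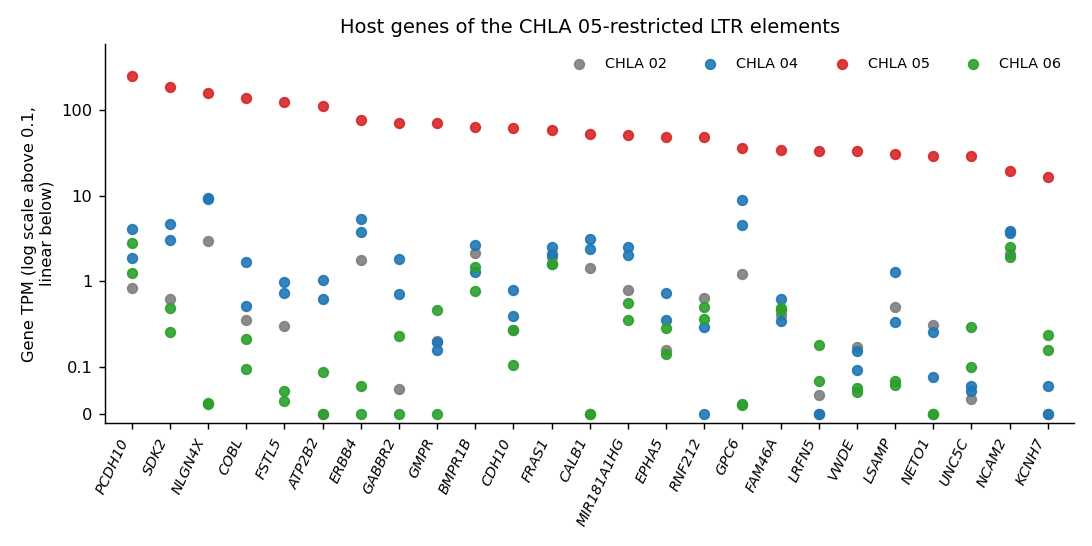
Gene TPM in the 6 libraries for the 25 host genes with the highest TPM in CHLA 05 among those at least 4 times higher there, each point 1 library, on an axis that is logarithmic above 0.1 and linear below. CHLA 05 lies above the other 5 libraries for every gene shown, from 251 TPM for PCDH10 to 16.8 TPM for KCNH7.

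The other 31 host genes, with 47 members that lay in no gene called by this rule, did not reach 4-fold. DMD, the dystrophin gene, held 6 intronic members with 99 reads, but was at 297 TPM in CHLA 05. The gene was at 141 TPM in the CHLA 02 library and at 355 and 372 TPM in those of CHLA 04. In the CHLA 06 libraries it was at 0 and 0.00852 TPM. Its other LTR elements had 483 reads in CHLA 05, 134 in CHLA 02, 151 and 295 in the CHLA 04 libraries and 1 and 4 in the CHLA 06 libraries. PTPRN2, a gene for a secretory granule protein with 3 members, was at 43.2 TPM, with 26.8 and 18.3 TPM in CHLA 04.

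ADAMTS19, a secreted protease gene, held 7 members and was lower in CHLA 05 (1.71 TPM) than in the CHLA 06 libraries (10.8 and 13.7 TPM). None of these members was on its strand. All of them lay on the strand of CTC-575N7.1, an antisense gene that held 8 members and was at 5.24 TPM in CHLA 05 and at 0 in the other 5 libraries. PTCHD1-AS, with 7 members, and LINC00469, with 5, are non-coding genes that were at 0.427 and 2.66 TPM in CHLA 05 and at 0 elsewhere. The other LTR elements of PTCHD1-AS had 308 reads in CHLA 05, 12 in CHLA 02, 14 and 4 in CHLA 04, and 1 and 2 in CHLA 06. Those of LINC00469 had 14 reads in CHLA 05 and 0 elsewhere. The LINC00469 members lay in the chromosome 17 cluster (chr17:73737192-73820289), which held 7 members and 130 reads. At such low levels the fold on TPM plus 1 understates a difference.

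Outside genes, some members lay beyond the ends of genes that were high in CHLA 05. The genes named here were chosen after their values were seen, apart from those next to clusters of 4 or more. Downstream of COL11A1, a fibrillar collagen gene, lay 5 THE1 members within 2808 to 6443 bp, with 30, 57, 18, 12 and 30 reads in order of distance, all on the strand of the gene. COL11A1 was at 1070 TPM in CHLA 05, 0.0962 in CHLA 02, 0.781 and 0.146 in CHLA 04, and 0.0357 and 0.0161 in CHLA 06. Downstream of VWDE, a gene for a von Willebrand factor domain protein at 33.1 TPM in CHLA 05 and at most 0.167 elsewhere, lay 8 members over 1139 to 41475 bp.

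The VWDE members differed along the genome. Their TPM, a level per length, was 126 in MER4D1 at 1139 bp, 118 in THE1D at 7109 bp, 95.4 in MER39B at 11448 bp and 82.8 in MLT1F2 at 13316 bp. Farther away it was 50.3 in MER50 at 29299 bp, 77.6 in LTR49 at 30824 bp, 51.6 in MER84 at 34014 bp and 49.5 in a second MER84 at 41475 bp. Beyond the end of SDC2, a syndecan gene at 167 TPM in CHLA 05 and 0.557 to 12.7 TPM elsewhere, lay 2 members with 20 and 21 reads. In all, 17 of the 44 members within 50 kb downstream had a nearest gene that was at least 4 times higher in CHLA 05, compared with 47 of the 1103 elements with the minimum and the same position. The 47 and the 1103 include the members. These 17 members lay beyond only 5 genes, VWDE, COL11A1, SDC2, CHST11 and ASB9, and those beyond 1 gene are not independent.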

How the data were processed

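Total RNA of 4 AT/RT cell lines was sequenced as stranded paired-end libraries. Per the labels and the study's methods, the authors processed reads with CASAVA 1.8.2, FastQC and Trimmomatic, mapped them to GRCh38 with the CLCbio Genomics Workbench, and deposited TPM per Ensembl transcript and, from a separate mapping, TPM per LTR element, scaled over LTR elements alone and rounded. Some versions, and whether strand was used in counting, are not given in the sources used here. The 12 files hold 1 library each.

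Reads were recovered as TPM multiplied by length, divided by the step of 1 read (Python 3.11.15, pandas 2.3.3, numpy 2.4.6). At least 99.998% of LTR values were whole within 5% of a read plus an allowance for the rounding of TPM, which grows with the length of the element. On simulated reads over 720177 elements for the rule of CHLA 05, 100% of values were recovered. Gene TPM was the sum over transcripts. Intervals were 95% Wilson intervals (scipy 1.17.1), and cover counting error only. The spread between cultures was not measured, and no test between lines was made. The uniqueness of 125-base windows was computed from hg38 (pysam 0.24.0). LTR sequences are not reported here.

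Members and lists were chosen with earlier results of these data known. Named were the 20 members with the most reads, clusters of 4 or more with their genes, the 10 host genes with the most members, repeat names with 10 or more members, up to 25 host genes past 4-fold with 5 TPM or more, and 3 elements on either side of the threshold. Alternatives were other minima, gaps, pseudocounts and annotations, reads allowed elsewhere, and leaving out technical replicates. Leaving out CHLA 02, the uniqueness of windows and GENCODE were added after the data were seen.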

Additional observations from a re-analysis of the deposited data

How the results depend on the processing

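All counts rest on reads recovered from rounded TPM and on 1 library of CHLA 05, and weak elements near 10 reads were decided by few reads. The number of members was 654, 78 and 21 with a minimum of 5000, 20000 and 50000, 340 when 1 read was allowed elsewhere, and 1531 with a minimum of TPM 10 in place of TPM multiplied by length. It ranged from 231 to 309 when a technical replicate was left out, and members in clusters from 156 to 217, members inside a gene from 135 to 192 and host genes past 4-fold from 34 to 48. Each highest value came without CHLA 04 replicate 2. With a minimum of 20000, members in clusters were 54, members inside a gene 32 and host genes past 4-fold 15. The counts of the other libraries moved as well. With 0 required in all 5 other libraries, CHLA 04 replicate 1 held 1, CHLA 04 replicate 2 held 0 and both CHLA 06 libraries held 0. With a minimum of 9 reads, CHLA 04 held 7 and 19 and CHLA 06 replicate 2 held 46. Without CHLA 02 they held 529, 456, 1024 and 1068. Of the 56 alternative values computed, 36 stayed within 1.5 times the reported count or within its interval, and the cause of the others was not tested. No paired analysis was possible because no test between cell lines was made.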
